A study of Spodoptera litura with 9 samples.

Results

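Of the 2476 long non-coding RNAs (lncRNAs) listed for the testis of the moth Spodoptera litura, 87 stood low in late larvae, were at least 2 times higher in prepupae and new pupae together, and differed little between those later stages. They were taken from 1561 transcripts of the authors' own assembly that are the only row of their locus. A mean of at least 20 counts over the 9 libraries, and more than 5 counts in some larval library, left 1143 of these. Counts were then scaled by the median-of-ratios method over all rows. A member's lowest later value had to exceed its highest larval value, which held for 170 of the 1143 (14.9%), its later mean had to be at least 2 times its larval mean, and its prepupal and pupal means had to be less than 1.5-fold apart. These stage values chose the members, so the differences between stages below describe the choice. Calls from tests of these differences are given as description only.

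Testes were taken from larvae on day 4 of the sixth instar, before fusion (L6D4), from prepupae on day 6 of that instar, during fusion (L6D6), and from pupae on day 0, after fusion (P0D), with 3 libraries each. All animals were untreated, and the larvae were fed an artificial diet. The labels name 9 dissected males and 3 repeats per stage, and do not say how animals were pooled or whether repeats were separate animals, so the spread between libraries may be technical. Fusion, age and the passage to the pupa cannot be told apart in these groups, and neither can fewer cells of a type and less RNA per cell. The table lists no coding genes, so the tissue could not be checked against coding markers.

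In many moths the paired larval testes move together and fuse into a single organ at metamorphosis, when steroid hormone pulses remodel larval tissues and spermatogenesis goes on inside the follicles. LncRNAs are transcripts without a long open reading frame. In many animals the testis expresses an unusually large number of them, some act on chromatin or on neighbouring genes, and most have no known function. The members carry assembly IDs, for which the files give no gene name, position, length or sequence, so no role can be given to any of them. Without lengths, a higher count for one member than for another does not show more molecules.

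Library totals lay between 2665554 and 4262529 counts, and size factors between 0.597 (L6D4-3) and 1.258 (L6D6-2). Together the members took 0.213%, 0.178% and 0.151% of the lncRNA counts of L6D4-1, L6D4-2 and L6D4-3. They took 0.759%, 0.814% and 0.768% of the L6D6 libraries and 0.722%, 0.848% and 1.19% of P0D-1, P0D-2 and P0D-3. The share was therefore low in every larval library and several times higher in every later one. The highest other locus past both count minimums had a mean of 1053769 scaled counts, so the totals behind these shares depend much on that locus. The share, which is taken of the unscaled total, was highest in P0D-3, and that library stood apart in composition (TMM factor 1.448, with 0.741 to 1.126 elsewhere). In scaled counts the median member was lowest in P0D-3 among the pupal libraries, at 99.9 against 114 in P0D-1 and 115 in P0D-2. The median member had 24.4 to 30.2 scaled counts in the larval libraries and 93.2 to 117 in the later ones, while the median over the other 1056 loci past both count minimums lay between 132 and 148 in all 9. Only 2 members had a larval library without a count, MSTRG.2983.1 and MSTRG.19384.1, both at L6D4-2. Every member was detected in every later library, as the choice requires.

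**Figure D1:**
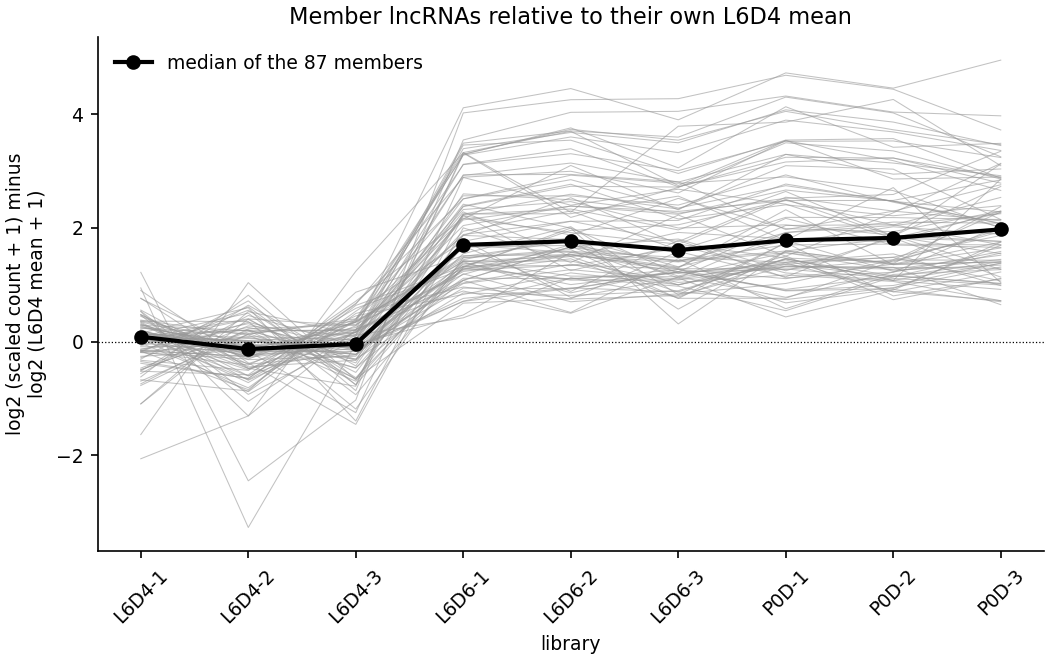
Scaled counts of the 87 members in the 9 libraries, as log2 (scaled count + 1) minus log2 of the member's own L6D4 mean + 1. Grey lines join the values of 1 lncRNA and the black line joins the medians; the step lies between the L6D4 and the L6D6 libraries, as the choice of members requires, and 2 members dip to a count of 0 in L6D4-2.

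The ratio of a member's later mean to its larval mean ran from 2.03 to 23.3, with a median of 3.55. It was under 3 for 36 members, 3 to 5 for 20, 5 to 10 for 20 and 10 or more for 11. Median larval means in these 4 classes were 45.95, 18.6, 21.8 and 6.52 scaled counts, and median L6D6 means were 102, 59.2, 140.03 and 77.9. The ratio contains the larval mean, so these values describe the classes. The lowest later value exceeded the highest larval value by 1.87-fold at the median, by 2-fold or more in 39 members and by under 1.5-fold in 24. The separation itself was required by the choice, and the narrowest margin was 1.002-fold, in MSTRG.14670.1.

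Among the members with the highest counts, MSTRG.15248.1 came first. It had 332, 277 and 347 scaled counts in the L6D4 libraries, 2426, 2821 and 2237 in the L6D6 libraries and 3136, 2819 and 2417 in the P0D libraries. Its larval libraries lay far below all others, while its L6D6 and P0D libraries overlapped. From 319 ± 36.5 at L6D4 its mean was 2494 ± 298 in prepupae and 2791 ± 360.3 in pupae (SD, n = 3 each), a log2 difference of 2.95 (SE 0.17) for L6D6 and 3.10 (SE 0.17) for P0D. It alone made up 8.77% to 10.8% of the members' counts in the later libraries and 4.16% to 5.13% in the larval ones.

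MSTRG.9040.2 had 1015, 801 and 726 scaled counts at L6D4, 1835, 1826 and 1955 at L6D6, and 2177, 2375 and 3090.4 at P0D. Here the 3 stages did not overlap, and P0D-3 was the highest library. MSTRG.18259.1 went the other way after L6D6, with 483, 486 and 575 at L6D4, 2581, 2842 and 2059.6 at L6D6, and 2140.5, 1886 and 1750.4 at P0D. Its P0D values were 0.772 times those at L6D6, and the lowest L6D6 library fell within the P0D range.

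MSTRG.12191.2 had 553, 523 and 474 scaled counts at L6D4, 876, 996 and 949.5 at L6D6, and 1425, 1092 and 1343 at P0D. MSTRG.19692.1 had 426, 293 and 315, then 867, 872 and 1075, and then 1196, 1167 and 1694. In both, every P0D library lay above every L6D6 library, by 1.37-fold and 1.44-fold at the mean. MSTRG.18377.1 was alike, with 552, 396 and 350.3 at L6D4, 784, 761 and 806 at L6D6, and 1185, 966 and 882 at P0D.

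A steeper step was seen in MSTRG.2601.1, with 107, 99.1 and 153 scaled counts at L6D4, 1043, 1192 and 969 at L6D6, and 1387, 1393 and 1138 at P0D. MSTRG.21025.1 had 93.7, 51.3 and 111, then 837, 1045 and 863, and then 1283, 1111 and 886. Their later means were 9.92 and 11.8 times the larval ones, and in both P0D-3 was the lowest of the P0D libraries. In MSTRG.19082.1, at 520.3, 434 and 246 before the step, then 1077, 890.4 and 883, and then 1004, 969 and 1149, the later stages overlapped. MSTRG.6954.1 had the smallest spread within stages of all members, with 352, 297 and 295 at L6D4, 788, 667 and 668 at L6D6, and 783, 778 and 771 at P0D. Its mean coefficient of variation within a stage was 6.98%, and the next smallest was 8.08% in MSTRG.15282.1, a member of lower counts with 53.9 ± 2.01, 140.4 ± 14.7 and 119 ± 11.9 (SD, n = 3 each).

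**Figure D2:**
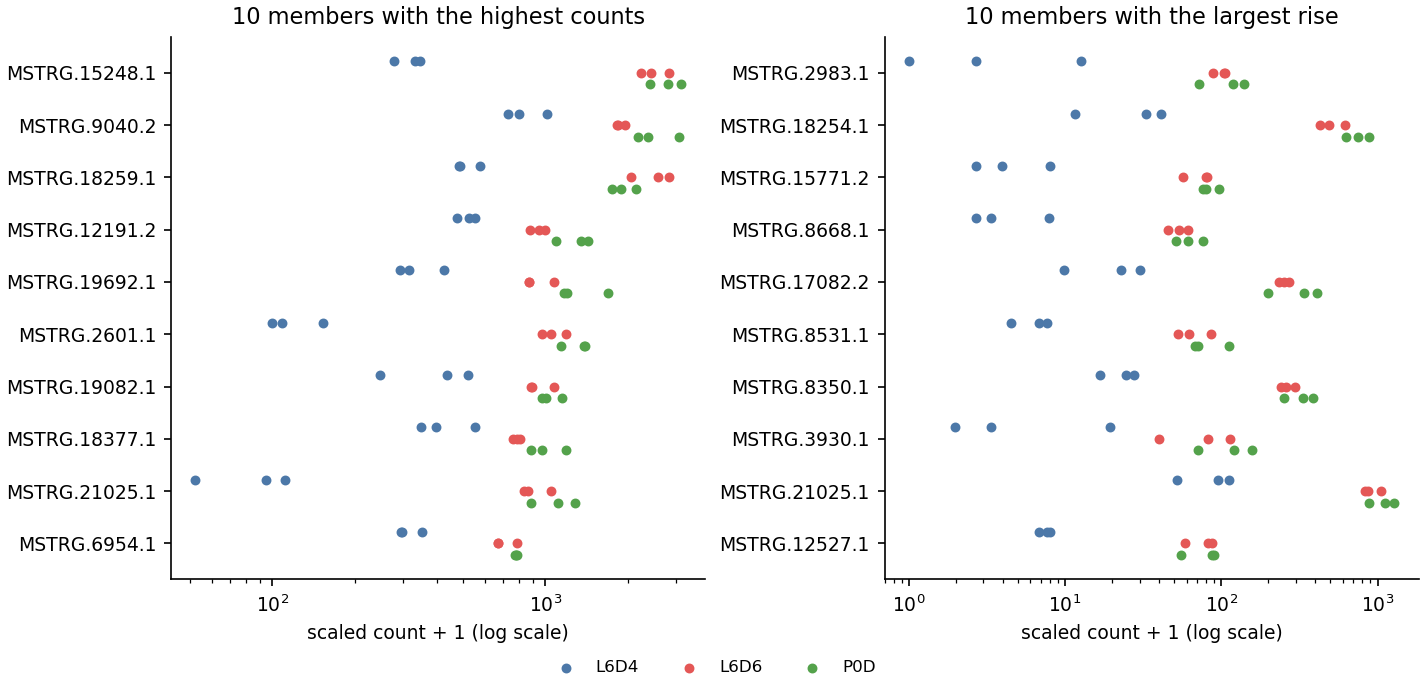
Scaled counts + 1 on a log axis for the 10 members with the highest mean counts (left) and the 10 with the largest ratio of later to larval mean (right), 1 point per library, coloured by stage. Larval points lie to the left of all later points in each row, from 1.38-fold apart in MSTRG.18377.1 to 10.6-fold in MSTRG.18254.1, whereas the points of L6D6 and P0D overlap in most rows.

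The largest ratios, 23.3 and 23.0, belonged to MSTRG.2983.1 and MSTRG.18254.1. MSTRG.2983.1 was near the limit of detection in larvae, with 12, 0 and 1 unscaled counts, which scale to 11.7, 0 and 1.68. It then had 87.8, 103 and 105 at L6D6 and 139.6, 118 and 71.1 at P0D, so its ratio rests on a larval level set mostly by L6D4-1. MSTRG.18254.1 was better covered, with 40.02, 10.5 and 31.8 at L6D4, 492, 622 and 424 at L6D6, and 753, 625 and 879.8 at P0D. Its log2 difference from L6D4 was 4.19 (SE 0.37) at L6D6 and 4.74 (SE 0.38) at P0D, and its gap of 10.6-fold between the highest larval and the lowest later library was the widest of the members.

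The next members in this order had larval levels of a few counts. MSTRG.15771.2 had 2.93, 6.996 and 1.68 scaled counts at L6D4, 55.9, 78.7 and 79.7 at L6D6, and 96.2, 79.0 and 75.4 at P0D. MSTRG.8668.1 had 6.83, 2.33 and 1.68, then 44.4, 60.4 and 52.8, and then 75.5, 60.1 and 49.96. Both were clear of their larval range by more than 6-fold, and in both the L6D6 and P0D libraries overlapped. MSTRG.8531.1 had 5.86, 3.50 and 6.71, then 61.2, 85.1 and 51.9, and then 110.4, 66.9 and 70.3. MSTRG.12527.1 was the evenest of them in larvae, at 6.52 ± 0.592, and stood at 75.2 ± 15.6 and 76.5 ± 19.3 later (SD, n = 3 each), a P0D mean 1.02 times the L6D6 mean.

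MSTRG.17082.2 and MSTRG.8350.1 reached higher counts. The first had 8.79, 29.1 and 21.8 scaled counts at L6D4, 234, 272 and 252 at L6D6, and 411, 339 and 198 at P0D. The second had 15.6, 26.8 and 23.5, then 240.4, 293 and 258, and then 387, 333 and 249.8. In both, P0D-1 was the highest and P0D-3 the lowest pupal library. MSTRG.3930.1 was the least even member, with a mean coefficient of variation of 73.3%: it had 0.976, 2.33 and 18.4 at L6D4, 81.6, 39.0 and 113 at L6D6, and 119, 157 and 69.4 at P0D.

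Of the 22 members with a mean of at least 200 scaled counts, 4 more had a later mean at least 5 times the larval one; they are named here after their values were seen. MSTRG.21519.1 had 151, 107 and 161 scaled counts at L6D4, 619, 733 and 663 at L6D6, and 892, 779 and 568 at P0D. MSTRG.19801.1 had 36.1, 29.1 and 73.8, then 350.4, 377 and 289, and then 548, 429 and 298. In these 2 the pupal order was again P0D-1, P0D-2, P0D-3 from high to low. MSTRG.19365.1, at 34.2, 31.5 and 52.0, then 402, 521 and 269, and then 467, 291 and 298, was widest at L6D6. MSTRG.8641.1 was an exception in the last library, with 68.3, 35.0 and 43.6 at L6D4, 302, 281 and 238 at L6D6, and 286, 299 and 508 at P0D.

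After L6D6 the members could by their choice move by less than 1.5-fold, and within that bound 61 had a higher and 26 a lower mean at P0D. Of the other 1056 loci past the count minimums, which had no such bound, 539 had a higher and 517 a lower mean. Among the members the ratio of the P0D to the L6D6 mean ran from 0.687 to 1.49 with a median of 1.16, and 53 members were within 25%. It was at its highest in MSTRG.16401.2, with 35.8 ± 9.31 at L6D6 and 53.2 ± 9.47 at P0D, in MSTRG.3930.1 (1.48), and in MSTRG.8463.1, with 579.8 ± 62.8 and 856 ± 115 (SD, n = 3 each). In MSTRG.8463.1 all 3 P0D libraries (918, 927 and 724) lay above all 3 L6D6 libraries (571, 646 and 522). The same held for 13 members in all, against 8.75% of the 1143 loci past the count minimums. All P0D libraries lay below all L6D6 libraries in 2 members, against 7.26% of those loci. The lowest ratios were in MSTRG.3779.1, at 33.7 ± 1.12 and 23.2 ± 2.25, MSTRG.19384.1, at 70.9 ± 3.61 and 49.2 with an SD of 13.998, and MSTRG.13228.1, at 39.5 ± 6.78 and 28.0 ± 5.95 (each SD over n = 3). By the ratio to larvae, a higher mean at P0D than at L6D6 was found in 22 of 36 members under 3, in 15 of 20 from 3 to 5, in 13 of 20 from 5 to 10 and in all 11 at 10 or more. That ratio contains the P0D mean, so a high P0D mean itself moves a member to a higher class, and nothing is read from this order.

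**Figure D3:**
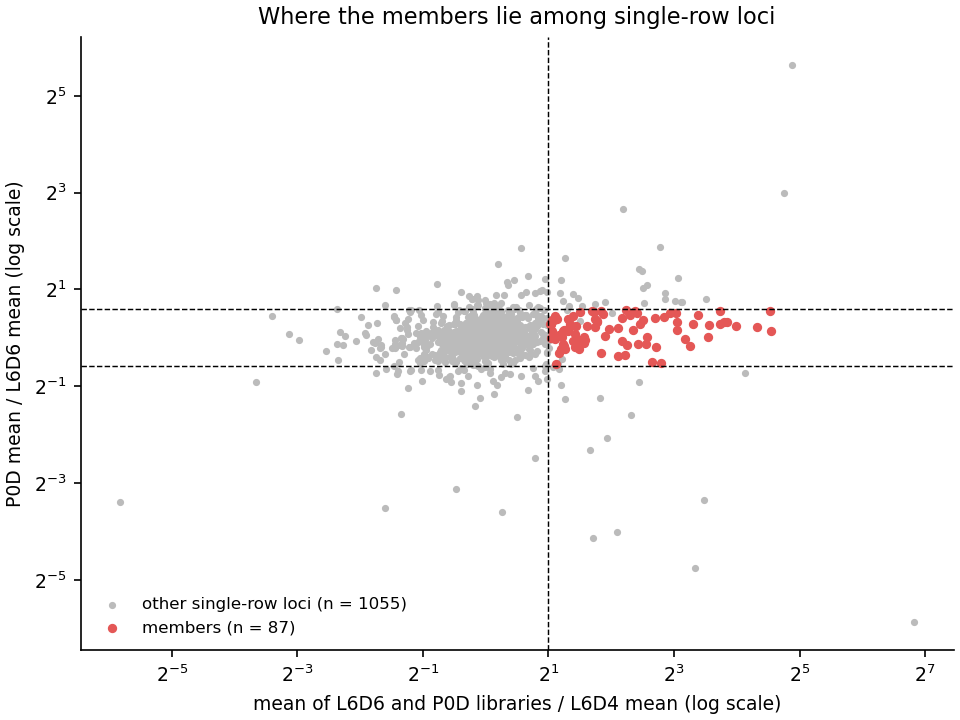
Ratio of the later mean to the L6D4 mean (x, log scale) against the ratio of the P0D to the L6D6 mean (y, log scale) for single-row loci past both count minimums, with the limits of the choice dashed. The 87 members fill the band right of 2 and between 1.5-fold limits; grey points inside it overlap with larval libraries, and 1 locus with a mean of 0 is not drawn.

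Fitted over all libraries and all 1913 lncRNAs that passed a filter on low counts, edgeR's quasi-likelihood test called 78 of the 87 members higher at L6D6 than at L6D4 (adjusted p under 0.05), beside 13% of all tested lncRNAs. It called 82 members higher at P0D than at L6D4, beside 14.1%. All 87 passed the filter. Since the members were chosen on these same contrasts, which share the L6D4 libraries, nothing is read from the counts. Median log2 differences of the members were 1.595 for L6D6 and 1.92 for P0D over L6D4, with -0.02 and 0.01 over all tested lncRNAs. Calls were made in both comparisons for 76 members, at L6D6 alone for 2, at P0D alone for 6, and in neither for 3, which are named here after their values were seen. These were MSTRG.17907.1, MSTRG.17693.1 and MSTRG.7751.1, with log2 differences of 1.34 (SE 0.51), 1.07 (SE 0.41) and 1.251 (SE 0.42) at L6D6. None of the 3 reached a mean of 26 scaled counts.

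Between L6D6 and P0D, edgeR called 0 of the 87 members, beside 1.78% of all tested lncRNAs; the bound on this ratio was part of the choice. An unadjusted p under 0.05 was found for 7 of the 87 members, beside 224 of the 1913 tested lncRNAs. DESeq2 and limma-voom also called 0 members, beside 63 and 46 of the 1913. The median log2 difference was 0.20, with 60 of 87 fitted values above 0, and 0.01 over all tested lncRNAs. Without P0D-3 it was 0.13, with 58 above 0, and without P0D-1 it was 0.15. Without P0D-3, 82 and 79 members were called higher than at L6D4 at L6D6 and at P0D, beside 307 and 282 of 1954 tested lncRNAs. Rechosen without that library, the set had 89 members, 74 of them shared with the 87.

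The order of the libraries within a stage was bounded in part by the choice, since no later library could fall to the larval range. That limit leaves less room for a low later library in members with small ratios than in those with large ones, so the values by ratio below are a description. L6D6-2 was the highest of the 3 L6D6 libraries in 51 members (58.6%), while it was the highest in 32.4% of the other loci past the count minimums. Among the 31 members with a later mean at least 5 times the larval one, L6D6-2 was highest in 22, P0D-1 was highest in 21 and P0D-3 was lowest in 20. These were 71.0%, 67.7% and 64.5%, beside 32.4%, 40.2% and 40.8% of the other loci. Among the 56 members with smaller ratios the shares were 51.8%, 37.5% and 32.1%. For the 11 members with ratios of 10 or more, the median value in P0D-3 was 0.773 times the stage mean, against 1.18 times in P0D-1. P0D-3 was lowest in 9 of them and highest only in MSTRG.18254.1. For the 36 members with ratios under 3 the median value was 0.99 times the stage mean in P0D-3 and 0.986 times in P0D-1. Whether the composition of P0D-3 has a part in this was not tested.

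**Figure D4:**
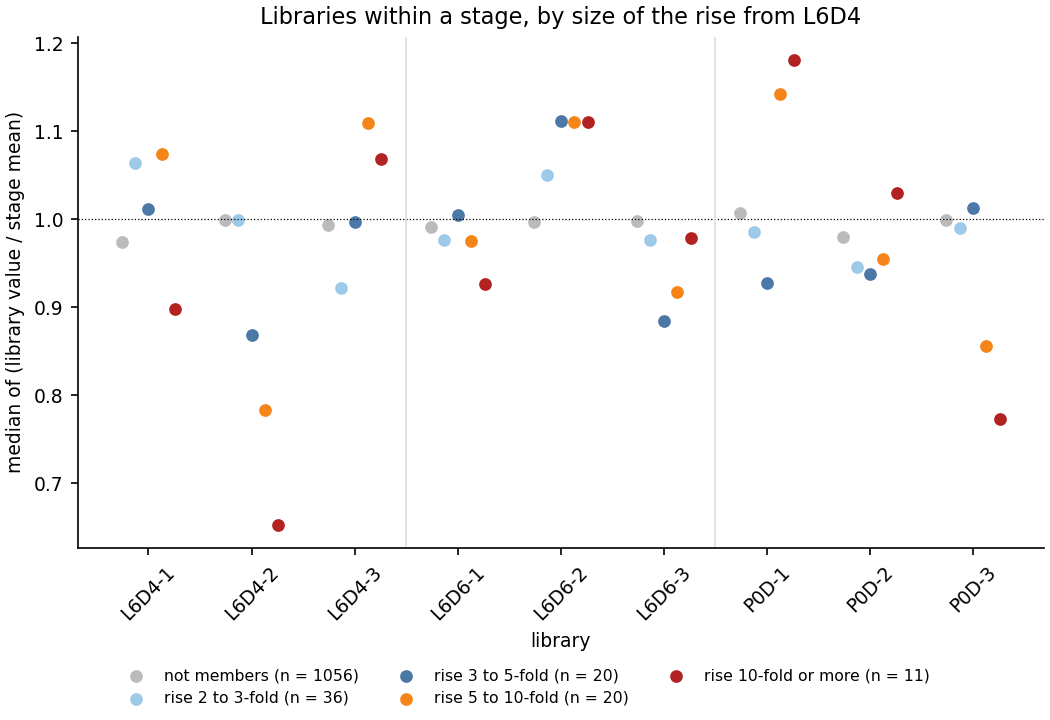
Median over lncRNAs of a library's scaled count divided by the mean of its stage, for members grouped by the ratio of later to larval mean and, in grey, for the 1056 other single-row loci past the count minimums. Grey points stay between 0.974 and 1.01, while members with a ratio of 10 or more lie at 1.11 in L6D6-2, 1.18 in P0D-1, 0.773 in P0D-3 and, at few counts, 0.653 in L6D4-2.

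The spread within stages was wider in larvae, where the members were low. The median coefficient of variation of the members was 33.0% at L6D4, 15.6% at L6D6 and 20.9% at P0D, against 19.2%, 14.3% and 21.6% for the other loci. The choice bounded the members' spread in part, since no later value could fall to the larval range, and the other loci had no such bound. Members with a mean under 50 scaled counts, 31 in number, had 45.5%, 25.3% and 21.2%, and the 22 with a mean of at least 200 had 22.3%, 11.2% and 16.2%.

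The choice did not use whether values were whole, or the transcript number. It did use the level of counts and the ratio to larvae, so differences in these below are in part built in. All 9 values were exactly whole numbers in 64 members (73.6%) and in 641 of the 1056 other loci (60.7%), while the rest carried decimals. The median of the mean scaled count was 85.0 in members and 144 in the other loci. It was 72.3 in members with whole values and 112 in those with decimals. Whether the level of counts has a part in the difference in shares was not tested. Members with decimals, 23 in all, had a median ratio of later to larval mean of 2.84, against 3.77 for those with whole counts. The assembler's transcript number was 1 in 68 members (78.2%) and in 901 of the other loci (85.3%). In the other 19 members it was above 1, up to 9 in MSTRG.10373.9, although each is the only row of its locus in the table. The sources used here do not say how reads shared with other transcripts of such a locus were divided. No member had values identical to those of another row. Consecutive locus numbers were found for 1 pair of members, MSTRG.14924.1, at 38.0 ± 17.0, 106 ± 14.5 and 126 ± 0.780, and MSTRG.14925.1, at 7.78 ± 2.73, 24.2 ± 10.5 and 28.1 ± 2.36 (SD, n = 3 each). Their later means were 3.06 and 3.36 times the larval ones.

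Close to the limits of the choice, members and non-members had similar values. The ratio of later to larval mean was 2.03 in MSTRG.21005.1 and 2.05 in MSTRG.14142.2, both inside, and 1.998 in MSTRG.9819.2 and 1.99 in MSTRG.12516.1, both outside. MSTRG.14670.1 (67.6 in its highest larval library, 67.8 in P0D-3) and MSTRG.4991.1 (39.7 and 40.6) were barely separated. MSTRG.4990.1 (54.8 and 53.8) and MSTRG.17241.1 (17.5 and 16.3) overlapped narrowly and were left out. On the ratio of P0D to L6D6, MSTRG.16401.2 (1.49) and MSTRG.3930.1 (1.48) were inside, and MSTRG.4970.1 (0.662) and MSTRG.436.1 (1.58) outside. The mean was 20.6 counts in MSTRG.15801.1 and MSTRG.17907.1, and 19.2 and 17.6 in the excluded MSTRG.14516.1 and MSTRG.19630.2. The highest larval count was 5.65 in MSTRG.3298.3 and 6 in MSTRG.12527.1, and 5 and 3 in the excluded MSTRG.16380.1 and MSTRG.2448.1. A further 25 loci met all limits but that on P0D against L6D6, 18 of them higher at P0D and 7 lower.

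The members were 7.61% of the 1143 loci past the count minimums. The mirrored pattern, with later libraries wholly below the larval ones, the larval mean at least 2 times the later one and the later means as close, was met by 62 of these loci (5.42%). Of rows in loci with several rows, 17 of 265 (6.42%) met the same limits as the members, and of annotated lncRNAs 9 of 196 (4.59%). No test of these shares was made. The annotated XR_002696919.1 had higher counts than any member, with 599, 624 and 511 at L6D4, 7707, 9345 and 11513 at L6D6, and 11016, 9675 and 10606 at P0D. Its later mean was 17.3 times the larval one, and its accession has no match in the reference table. XR_002696820.1 and XR_002697290.1, also without a match, had later means 3.22 and 7.78 times the larval ones. XR_002697178.1, of LOC111360913, and XR_002697171.1, of LOC111360892, had ratios of 9.11 and 2.03.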

How the data were processed

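RNA was depleted of ribosomal RNA and made into dUTP-stranded libraries for a NovaSeq instrument, per the labels' protocols, whereas the labels' molecule field reads polyA RNA. Which of these holds bears on which lncRNAs could be counted and was not settled here. The authors deposited an estimated count per lncRNA transcript, with decimals in part of the values and without scaling to depth. The submitters' processing notes name StringTie 1.3.4, HISAT2 2.1.0, Bowtie2 2.2.8, fastp 0.18.0 and DESeq2 1.6.3 without saying what each did. Not given in the sources used here are the counting tool, the genome build and whether counting used the strand, so levels of lncRNAs that overlap other genes are uncertain. Columns were matched to samples by name. Libraries of a stage differed by more than counting noise in every pair (chi-square at least 15.47 per degree of freedom).

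Size factors for choosing members were medians of ratios over the 1872 rows above 0 in all libraries, on counts as deposited. The members, and the rules for naming them, were chosen with earlier results of these data known. For edgeR 4.0.16 (R 4.3.3; TMM, filterByExpr, quasi-likelihood test on all 9 libraries, 6 residual degrees of freedom, Benjamini-Hochberg over 1913 lncRNAs) counts were rounded, since the test had been planned for counts as deposited. Each SE is the log2 difference divided by the root of F. Both steps were checked on simulated data. DESeq2 1.42.0, limma 3.58.1, other scalings, no filter, the 2 stages alone, a replicate block and leaving out each library were alternatives.

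Named by rule were the 10 members highest in counts, the 10 with the largest ratio to larvae, the 3 highest and 3 lowest in P0D over L6D6, 2 on each side of each limit, the 2 most and least variable, those with consecutive locus numbers, and up to 5 annotated lncRNAs of the same profile. Annotated accessions were looked up without version in a RefSeq table of the assembly ASM270686v4, used for names only; 3 of 9 matched. Precision is limited by counting at low levels and by 3 libraries a stage.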

Additional observations from a re-analysis of the deposited data

How the results depend on the processing

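Alternatives were run for the number of members, the members called in each of the 3 comparisons and their median log2 differences. These medians kept their sign, and no number of called members moved by over 1.5 times. Since the members were chosen on these same contrasts, this stability is largely built in. An SD of the members' median difference was taken over the 3 libraries of the later stage, with the mean of the earlier stage held fixed. It leaves out the spread of the earlier stage. The median moved by at least this SD in 4 alternatives for L6D6 over L6D4, in 1 for P0D over L6D4 and in 2 for P0D over L6D6. The order of libraries within stages, the spread, the share of whole values and the split of means between L6D6 and P0D were not recomputed. When only library totals were used for scaling, median log2 differences of the members were 1.95 (L6D6 over L6D4) and 2.31 (P0D over L6D4). The median over all tested lncRNAs then moved to 0.314 and 0.404. With that scaling 77 and 82 members were called higher, beside 329 and 373 of all 1913 tested lncRNAs. Rechoosing on that scaling gave 121 members, 79 of them shared. Under the other scalings the rule gave 84 (TMM, all shared) and 80 (upper quartile, 79 shared), and 72 members met it under all 4. It gave 51 with a ratio of at least 3 and 53 with L6D6 and P0D at most 25% apart. Leaving out 1 library at a time, the rule gave 83 to 97 members. Of the 87, 66 to 82 were called higher at L6D6 and 73 to 81 at P0D. These fits called 170 to 307 and 204 to 282 of 1954 to 1974 tested lncRNAs higher. Median log2 differences of the members were 1.55 to 1.76 and 1.84 to 1.94. P0D over L6D6 gave 0 calls among members throughout, beside 26 to 45 of all tested lncRNAs, and member medians of 0.13 to 0.22. Same-numbered libraries did not deviate together (correlations of -0.148 to 0.087), so the numbers were not taken as pairs. With a replicate block 73, 79 and 0 members were called in the 3 comparisons. That fit called 222 and 234 of all 1913 tested lncRNAs higher than at L6D4, and 29 in either direction between L6D6 and P0D. With 3 libraries a stage and larval levels of few counts, ratios of the lowest members are imprecise.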

Other observations

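The member MSTRG.4991.1 and the locus with the number before it, MSTRG.4990.1, had the same order of libraries at P0D but not at L6D6. MSTRG.4990.1 missed the choice by a narrow overlap. This pair was noticed after the values were seen. MSTRG.4990.1 had 108, 95.4 and 91.7 scaled counts at L6D6 and 53.8, 79.0 and 121 at P0D, and MSTRG.4991.1 had 106, 51.7 and 65.8 and then 40.6, 56.6 and 102. In both, P0D-3 was the highest pupal library and P0D-1 the lowest. Among all non-member loci past the count minimums, P0D-3 was highest in 42.0% and P0D-1 lowest in 34.6%. The files give no positions, so whether consecutive numbers lie side by side was not tested.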
